A study of Mus musculus with 6 samples.

Results

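The 10 genes described here encode core subunits of the Polycomb repressive complexes: Ezh1, Ezh2, Eed, Suz12 and Jarid2 of PRC2, and Ring1, Rnf2, Bmi1, Pcgf6 and Cbx2 of PRC1. The rule names them by gene symbol and uses no value, and each symbol matched 1 of the 47728 gene rows in each of the 4 gene tables. The tables give RNA-seq values for Kdm1aZp3 oocytes (3 libraries), Kdm1aZp3 M-Z+ 2C embryos collected on embryonic day 1.5 (also 3 libraries), control M+Z+ 2C embryos and control oocytes. Kdm1a encodes a demethylase of histone H3 lysine 4. The mutant females were floxed for Kdm1a (LSD1 FL/FL, ZP3Cre+ in the labels, where LSD1 is another name of Kdm1a) and carried a Cre transgene driven by the Zp3 promoter, which is active in growing oocytes from the primary follicle onwards, so their ovulated eggs lacked maternal KDM1A. The M-Z+ 2C embryos came from such females mated with wild type CB6 males and carried an intact paternal Kdm1a allele, and eggs or embryos of a litter were lysed together. The control groups were libraries of an earlier study, called wild type by the submitters and Kdm1a fl/fl in the paper, and they are not among the 6 samples of the series. Study of origin and Kdm1a genotype therefore cannot be told apart wherever a mutant group is set against a control group.

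Polycomb complexes keep developmental genes silent by modifying histones. PRC2 trimethylates lysine 27 of histone H3 through EZH1 or EZH2, which are active only when bound to EED and SUZ12, while EED also binds the finished mark and stimulates the enzyme, and JARID2 helps to recruit and activate the complex on chromatin. PRC1 attaches ubiquitin to histone H2A through RING1 or RNF2, each paired with a PCGF protein such as BMI1 (PCGF4) or PCGF6, and CBX proteins such as CBX2 bring canonical PRC1 to the H3K27me3 mark. In the mouse, maternal EED and EZH2 are needed for H3K27me3 inherited through the oocyte, and PRC1 acts in growing oocytes through RING1 and RNF2.

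Values are the authors' means of each group, in weighted read counts after median normalization within a table. No value per library is held beside these means, so no SD is given and no test was run. The authors' own p and q were not used. Each value below is a description of group means. A log2 ratio is that of 2 means of the same table after adding 1 to each, positive where the first-named group is higher. A gene was counted as higher or lower when this ratio was at least 2-fold, among rows whose mean reached 20 in one or both groups. The count of members is read against the share of all such rows past the same fold. In bulk samples, fewer cells of a type and less RNA per cell cannot be told apart, and total RNA per egg or embryo is not known from normalized values.

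Kdm1a checked the labels. Its mean was 6.37 in Kdm1aZp3 oocytes and 921 in control oocytes (log2 ratio -6.97), and 14.5 in Kdm1aZp3 M-Z+ 2C embryos and 1254 in control 2C embryos (log2 ratio -6.34). The 2C tables name their columns only a and b, read here with b as the group that comes first in the name of the table, although the source-data legends say the reverse, and under this reading Kdm1a is low in the mutant column of both tables that have one. Across tables the same control oocytes kept 1 scale factor for all 9 members with a mean above 1, between 2.24 and 2.32 from the oocyte table to the control 2C table. All 8 oocyte markers (the zona pellucida genes, Gdf9, Bmp15 and others) were past the minimum in every table. In Kdm1aZp3 M-Z+ 2C embryos over control 2C embryos 5 were at least 2-fold higher and 1, Zp3, was lower (log2 ratio -1.13). Of all rows, 32.2% were higher and 41.2% lower there. In Kdm1aZp3 oocytes over control oocytes 4 were higher and 0 lower, where 17.9% and 14.2% of all rows were. In sum the 8 oocyte markers were at 70201 in Kdm1aZp3 oocytes and 49132 in control oocytes, and at 73344 in Kdm1aZp3 M-Z+ 2C embryos and 8418 in control 2C embryos. Over the 8 rows of 2C-stage markers such as Zscan4c, the sum was 1847 in Kdm1aZp3 M-Z+ 2C embryos and 3834 in control 2C embryos. Of these rows, 7 were at least 2-fold lower and 1 was at least 2-fold higher (41.2% and 32.2% of all rows were). Of the cumulus and granulosa markers, Amh and Foxl2 were at 0 in every group, but Cyp19a1 was at 4237 in Kdm1aZp3 oocytes and 957 in control oocytes, and at 1488 in Kdm1aZp3 M-Z+ 2C embryos and 5.55 in control 2C embryos. Of the 9 markers in this list 2, Cyp19a1 among them, passed the minimum in each of these comparisons. Both were at least 2-fold higher in the mutant group, in oocytes (median log2 ratio 2.85) and in 2C embryos (6.50). Of all rows, 17.9% and 32.2% were. Ovgp1, a secreted protein of the oviduct, was at 1.01 in Kdm1aZp3 M-Z+ 2C embryos and 154 in control 2C embryos. Blood and sperm markers summed to at most 33.1 in any group. These lists differ between the same groups as the members do, and their part in the members' values was not tested.

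The 5 members printed below are among those that stood at opposite ends in the step between control oocytes and control 2C embryos: Suz12, Bmi1 and Ring1 were higher in control 2C embryos, and Eed and Pcgf6 lower. Jarid2 and Ezh2, further down than Pcgf6, are not printed because their windows lie inside the genes as GENCODE annotates them. Each line gives the 250 bases before the start of the RefSeq gene (GRCm38.p6, the assembly also called mm10), 5′ to 3′ on the gene's strand. Capitals mark every match, on either strand, to 6 short motifs: the core promoter element TATAAA, the NF-Y site CCAAT, the E box CACGTG of MYC and MAX proteins, GGGCGG of the factor SP1, CCGGAAG of ETS factors, and AAGATGG of the factor YY1. Matches may overlap. The windows are chr11:79992856-79993105 on the plus strand for Suz12, chr2:18676768-18677017 on the plus strand for Bmi1, chr17:34024681-34024930 on the minus strand for Ring1, chr7:89980977-89981226 on the minus strand for Eed, and chr19:47050907-47051156 on the minus strand for Pcgf6.
Suz12: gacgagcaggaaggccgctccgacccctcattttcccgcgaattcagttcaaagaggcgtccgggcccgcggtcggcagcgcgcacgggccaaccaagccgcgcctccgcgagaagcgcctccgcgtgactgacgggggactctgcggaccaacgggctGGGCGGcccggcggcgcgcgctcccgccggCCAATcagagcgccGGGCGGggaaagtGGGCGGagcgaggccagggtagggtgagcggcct
Bmi1: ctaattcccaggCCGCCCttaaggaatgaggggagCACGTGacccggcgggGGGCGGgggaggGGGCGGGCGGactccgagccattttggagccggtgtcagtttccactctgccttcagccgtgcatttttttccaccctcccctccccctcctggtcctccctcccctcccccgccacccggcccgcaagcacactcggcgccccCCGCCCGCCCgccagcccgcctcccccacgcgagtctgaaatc
Ring1: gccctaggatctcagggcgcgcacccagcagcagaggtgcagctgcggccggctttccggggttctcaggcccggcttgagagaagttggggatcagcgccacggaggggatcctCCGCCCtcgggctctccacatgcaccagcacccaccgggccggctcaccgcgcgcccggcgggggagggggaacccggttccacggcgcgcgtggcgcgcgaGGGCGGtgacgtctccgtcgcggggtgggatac
Eed: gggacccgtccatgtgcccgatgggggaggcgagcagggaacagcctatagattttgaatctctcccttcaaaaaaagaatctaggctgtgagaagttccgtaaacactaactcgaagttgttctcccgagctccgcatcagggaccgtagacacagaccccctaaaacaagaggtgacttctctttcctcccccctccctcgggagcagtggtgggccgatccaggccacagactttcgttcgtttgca
Pcgf6: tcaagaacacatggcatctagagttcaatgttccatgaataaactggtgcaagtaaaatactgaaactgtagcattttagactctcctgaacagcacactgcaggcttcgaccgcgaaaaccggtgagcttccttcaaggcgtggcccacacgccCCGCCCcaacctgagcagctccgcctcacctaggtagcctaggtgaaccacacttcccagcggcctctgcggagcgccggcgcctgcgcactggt

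GGGCGG was present 3 times in the Suz12 window, 6 times with overlaps in the Bmi1 window and 2 times in the Ring1 window, against 1 time in that of Pcgf6 and 0 times in that of Eed. Of 32851 such windows of 27025 genes, 32.7% hold it. CCAAT was found 1 time in the Suz12 window (33.8% of all windows hold it), and 3 times in the window of Ezh2, which is not printed. CACGTG was found 1 time in the Bmi1 window (6.02% of all windows). The other motifs were found in none of these 5 windows. They are held by 12.4% of all windows for TATAAA, 6.91% for CCGGAAG and 4.49% for AAGATGG. The number of CG dinucleotides was 37 for Suz12, 21 for Bmi1, 30 for Ring1, 12 for Eed and 14 for Pcgf6, against a median of 6 over all windows. Among the lower members not printed it was 23 for Ezh2, and 23 and 22 in the windows of Jarid2, so this number does not sort higher from lower members. GGGCGG does not sort the members by their levels, since Rnf2 with 2 matches and Jarid2 with 1 in each of its 2 windows were not among the higher members. The windows of Ezh1 and Ezh2 had 0. For Cbx2 no window was used.

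The first comparison asked how the Polycomb genes stood in the oocyte after loss of KDM1A. Most members were somewhat lower in Kdm1aZp3 oocytes than in control oocytes, and 1 passed 2-fold. Of 9 members past the minimum mean, 0 were at least 2-fold higher, where 17.9% of all 11141 rows were, and 1 was at least 2-fold lower, where 14.2% of rows were. The median log2 ratio of the 9 was -0.62, against 0.01 over all rows, and 8 of the 9 ratios lay below 0. Abundant genes (mean 1000 or higher) had a median of -0.13. Related lists, described further below, leaned the same way. Their median was -0.47 for the other PRC2 genes (5 of 8 below 0) and -0.26 for the other PRC1 genes (16 of 22). For enzymes that oppose Polycomb marks it was -0.55 (5 of 7). The lean was thus not particular to the members, and its size against these lists was not tested.

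Jarid2, on chromosome 13 of GRCm38 from 44729474 to 44921643, was the member past 2-fold. Its mean was 830 in Kdm1aZp3 oocytes and 2231 in control oocytes, a 2.69-fold lower value (log2 ratio -1.43). The enzyme Ezh2, on chromosome 6 from 47530139 to 47595341, was at 3718 in Kdm1aZp3 oocytes and 4860 in control oocytes (log2 ratio -0.39). Its paralog Ezh1, on chromosome 11 from 101191115 to 101226463, was at 421 in Kdm1aZp3 oocytes and 646 in control oocytes (log2 ratio -0.62). Both enzymes were thus lower in the mutant mean by less than 2-fold. Eed, the reader subunit on chromosome 7 from 89954654 to 89980983, was at 2665 in Kdm1aZp3 oocytes and 4251 in control oocytes (log2 ratio -0.67). Suz12, the scaffold subunit on chromosome 11 from 79993106 to 80034123, was at 3696 in Kdm1aZp3 oocytes and 5117 in control oocytes (log2 ratio -0.47). All 5 PRC2 members thus had the lower mean in Kdm1aZp3 oocytes.

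Among the PRC1 genes, Rnf2, the E3 ligase on chromosome 1 from 151458004 to 151500955, was at 1574 in Kdm1aZp3 oocytes and 1976 in control oocytes (log2 ratio -0.33). Ring1, the paralogous ligase on chromosome 17 from 34020792 to 34024680, was listed at 0 in both groups of oocytes. Of 21976 rows with a control oocyte mean above 0 in the control 2C table, 3535 are listed at 0 in the oocyte table, and their median in the control 2C table is 0.107, so a listed 0 does not show that a gene is absent. Rnf2 was thus the ligase with a measurable level in oocytes of either genotype. Bmi1, on chromosome 2 from 18677018 to 18686629, was at 2272 in Kdm1aZp3 oocytes and 4027 in control oocytes (log2 ratio -0.83). Cbx2, on chromosome 11 from 119022962 to 119031270, was at 455 in Kdm1aZp3 oocytes and 826 in control oocytes (log2 ratio -0.86). Pcgf6, on chromosome 19 from 47033617 to 47050906, went the other way, at 4724 in Kdm1aZp3 oocytes and 3612 in control oocytes (log2 ratio 0.39). Bmi1 and Pcgf6 therefore stood on opposite sides of 0 in oocytes, while the other PCGF genes past the minimum were at -0.66 (Pcgf1), 0.60 (Pcgf3) and 0.33 (Pcgf5).

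**Figure D1:**
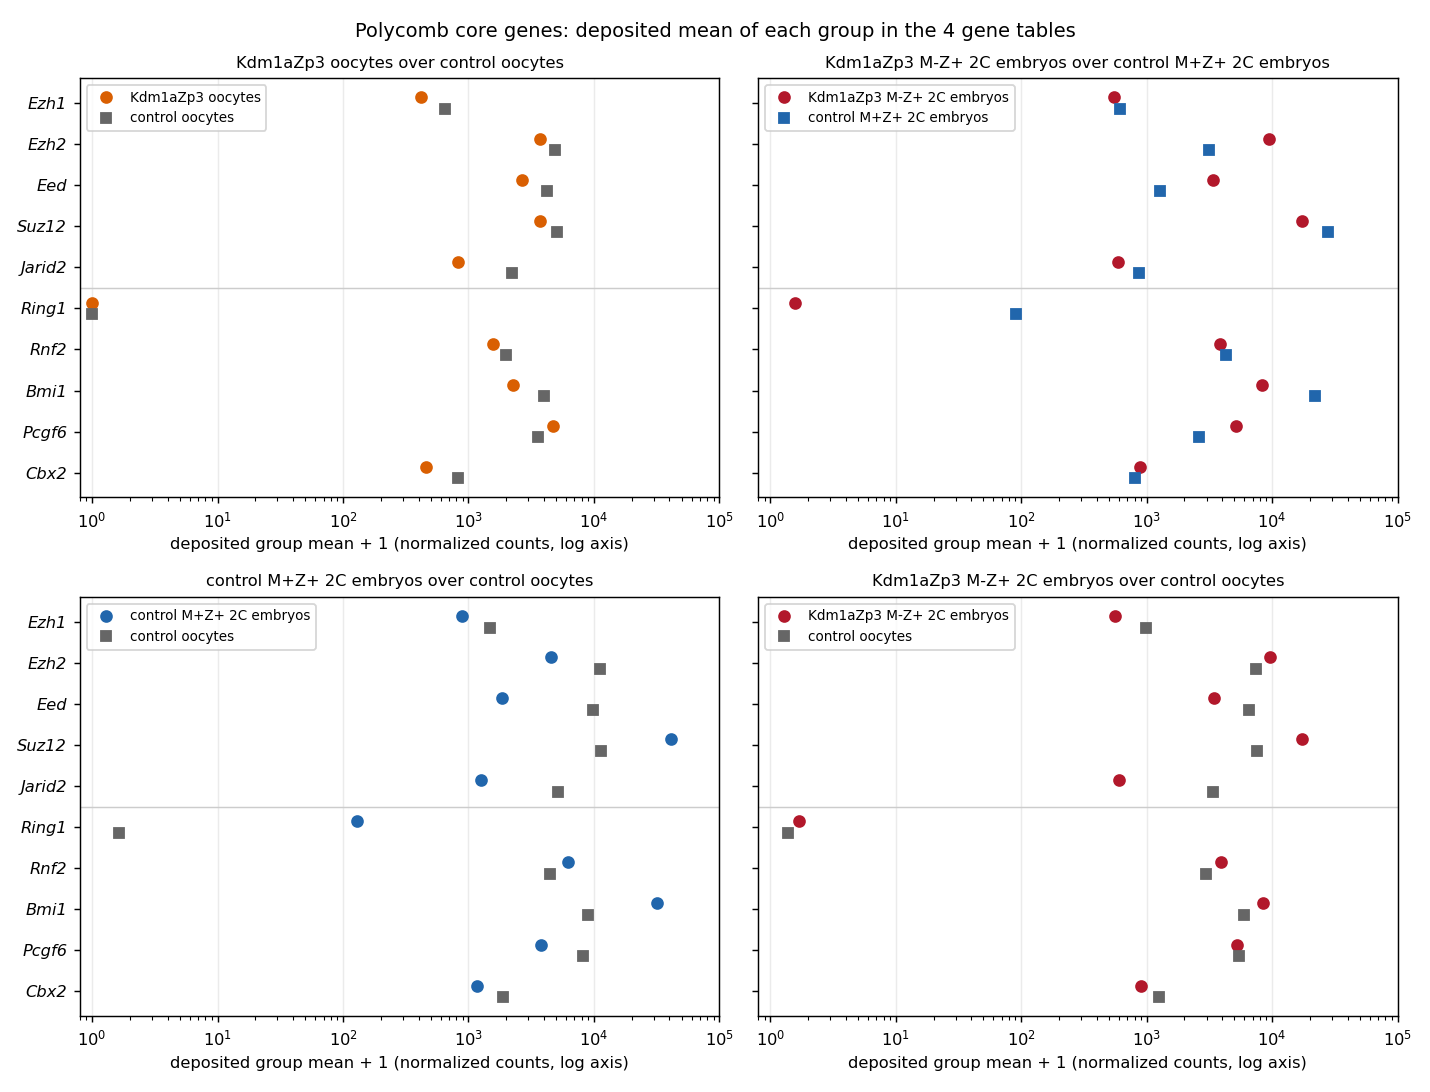
Authors' mean of each group plus 1 (normalized counts, log axis) for the 10 Polycomb genes, with 1 panel for each gene table. Circles mark the first-named group of a panel and squares the second, and a grey line separates PRC2 genes from PRC1 genes. Ring1 lies at the left edge in oocytes and in Kdm1aZp3 M-Z+ 2C embryos (0.587) and at 89.3 in control 2C embryos of the same panel, and Suz12 is at 17143 in Kdm1aZp3 M-Z+ 2C embryos and 28115 in control 2C embryos there.

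The second comparison sets control 2C embryos against control oocytes, where both groups came from the same earlier study. The PRC2 members did not share a direction: Suz12 was 3.57-fold higher in control 2C embryos, while Eed was 5.32-fold, Jarid2 4.10-fold and Ezh2 2.46-fold lower. In PRC1, Bmi1 and Ring1 were higher and Pcgf6 lower. Of the 10 members, 3 were at least 2-fold higher, where 39.9% of 15016 rows were, and 4 were at least 2-fold lower, where 34.9% of rows were. The median log2 ratio of the members was -0.71, against 0.17 over all rows, and centring on the median of all rows left these 7 calls as they were. Read against all rows, 30.0% of the members were higher and 40.0% lower.

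Suz12 had a mean of 40919 in control 2C embryos and 11466 in control oocytes (log2 ratio 1.84). Its partner Eed had 1850 in control 2C embryos and 9847 in control oocytes (log2 ratio -2.41). The scaffold and the reader of PRC2 thus lay on opposite sides of their level in control oocytes. Ezh2 had 4547 in control 2C embryos and 11177 in control oocytes (log2 ratio -1.30). Ezh1 had 895 in control 2C embryos and 1496 in control oocytes (log2 ratio -0.74). Jarid2 had 1254 in control 2C embryos and 5142 in control oocytes (log2 ratio -2.03). Of the 5 PRC2 members, Suz12 alone had the higher mean in control 2C embryos.

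Bmi1 had a mean of 31679 in control 2C embryos and 9016 in control oocytes (log2 ratio 1.81), close to the ratio of Suz12. Ring1 had 127 in control 2C embryos and 0.643 in control oocytes, where its value is near 0. Its log2 ratio of 6.29 depends on the added 1, and it is 3.69 with 10 added. Rnf2 had 6255 in control 2C embryos and 4484 in control oocytes (log2 ratio 0.48). Per kilobase of exon, Rnf2 was at 1044 and Ring1 at 27.5 in control 2C embryos, so Rnf2 was the more abundant ligase there too. Pcgf6 had 3794 in control 2C embryos and 8183 in control oocytes (log2 ratio -1.11). Cbx2 had 1177 in control 2C embryos and 1895 in control oocytes (log2 ratio -0.69). The PCGF subunits Bmi1 and Pcgf6 thus stood on opposite sides of 2-fold in this step.

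The third comparison asked how the 2C embryo without maternal KDM1A differed from the control 2C embryo. Ezh2 and Eed were higher in Kdm1aZp3 M-Z+ 2C embryos, and Bmi1 and Ring1 were lower. Of the 10 members, 2 were at least 2-fold higher, where 32.2% of 14097 rows were, and 2 were at least 2-fold lower, where 41.2% of rows were. Neither share of members lies above that of all rows, so the count is no result about the members. Their median log2 ratio was -0.16, against -0.32 over all rows. Over the rows with a mean of at least 1000 the median was -0.029, so the shift was not that of abundant genes. Ratios relative to -0.32 are given as an alternative scaling beside the members' own.

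Ezh2 had a mean of 9405 in Kdm1aZp3 M-Z+ 2C embryos and 3130 in control 2C embryos, 3.00-fold higher (log2 ratio 1.59, and 1.90 relative to all rows). Eed had 3370 in Kdm1aZp3 M-Z+ 2C embryos and 1278 in control 2C embryos, 2.64-fold higher (log2 ratio 1.40, and 1.72 relative to all rows). The catalytic and the reader subunit were thus both past 2-fold on the higher side, under each scaling tried. Suz12 had 17143 in Kdm1aZp3 M-Z+ 2C embryos and 28115 in control 2C embryos (log2 ratio -0.71, and -0.40 relative to all rows). Jarid2 had 587 in Kdm1aZp3 M-Z+ 2C embryos and 861 in control 2C embryos (log2 ratio -0.55, and -0.23 relative to all rows). Ezh1 had 548 in Kdm1aZp3 M-Z+ 2C embryos and 610 in control 2C embryos (log2 ratio -0.15, but 0.17 relative to all rows). Suz12, Jarid2 and Ezh1 were within 2-fold under each scaling, and the side on which Ezh1 lay turned with the scaling.

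In PRC1, Bmi1 had a mean of 8266 in Kdm1aZp3 M-Z+ 2C embryos and 21788 in control 2C embryos, 2.64-fold lower (log2 ratio -1.40, and -1.08 relative to all rows). With group totals set equal the ratio of Bmi1 was -0.95, under 2-fold. Ring1 had 0.587 in Kdm1aZp3 M-Z+ 2C embryos and 89.3 in control 2C embryos (log2 ratio -5.83, -5.51 relative to all rows, and -3.23 with 10 added). Its mean in the mutant embryos was thus under 1. Rnf2 had 3824 in Kdm1aZp3 M-Z+ 2C embryos and 4310 in control 2C embryos (log2 ratio -0.17, but 0.15 relative to all rows). Pcgf6 had 5149 in Kdm1aZp3 M-Z+ 2C embryos and 2614 in control 2C embryos (log2 ratio 0.98, just inside 2-fold, and 1.30 relative to all rows). Cbx2 had 884 in Kdm1aZp3 M-Z+ 2C embryos and 810 in control 2C embryos (log2 ratio 0.13, and 0.44 relative to all rows). Pcgf6 was therefore on the higher side in mutant oocytes and in mutant 2C embryos alike, against different control groups of the same earlier study. Bmi1 was on the lower side in both, but this was not particular to Bmi1. Jarid2 (log2 ratio -1.43 in oocytes and -0.55 in 2C embryos) and Suz12 (-0.47 and -0.71) were lower in both too. So were Ezh1 and Rnf2, whose side in 2C embryos turned with the scaling.

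**Figure D2:**
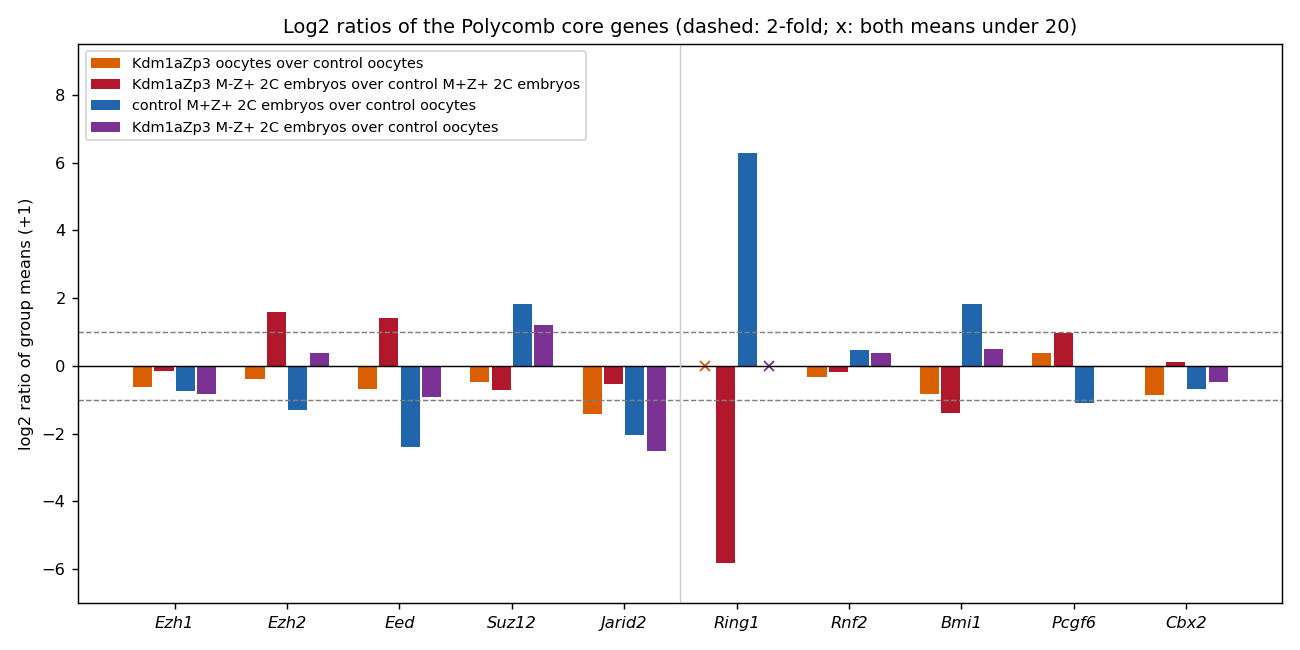
Log2 ratio of group means, with 1 added to each mean, for the 10 Polycomb genes in the 4 comparisons (bars, coloured by comparison). Dashed lines mark 2-fold and crosses mark Ring1 where both means were under 20. Ezh2, Eed and Pcgf6 lie above 0 in Kdm1aZp3 M-Z+ 2C embryos over control 2C embryos (1.59, 1.40 and 0.98) and below 0 in control 2C embryos over control oocytes (-1.30, -2.41 and -1.11), a pair of comparisons that share the control 2C libraries.

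Kdm1aZp3 M-Z+ 2C embryos were also set against control oocytes, the same reference as for control 2C embryos. Of 9 members past the minimum, 1 was at least 2-fold higher, where 27% of 12437 rows were, and 1 was at least 2-fold lower, where 31.7% of rows were. The higher gene was Suz12, with 17431 in Kdm1aZp3 M-Z+ 2C embryos and 7620 in control oocytes (log2 ratio 1.19). The lower gene was Jarid2, with 598 in Kdm1aZp3 M-Z+ 2C embryos and 3405 in control oocytes (log2 ratio -2.51). The scaffold was thus above, and the recruiting subunit below, its level in control oocytes. Ezh2 was at 9578 in Kdm1aZp3 M-Z+ 2C embryos and 7404 in control oocytes (log2 ratio 0.37), and Eed at 3427 in Kdm1aZp3 M-Z+ 2C embryos and 6494 in control oocytes (log2 ratio -0.92). Bmi1 was at 8419 in Kdm1aZp3 M-Z+ 2C embryos and 5990 in control oocytes (log2 ratio 0.49), and Pcgf6 at 5254 in Kdm1aZp3 M-Z+ 2C embryos and 5429 in control oocytes (log2 ratio -0.05, but 0.10 relative to the median of all rows, -0.15). All 4 were within 2-fold here, but Eed was close to it and passed it on the lower side when its ratio was taken through control 2C embryos. In control 2C embryos over the same control oocytes their ratios were -1.30 for Ezh2, -2.41 for Eed, 1.81 for Bmi1 and -1.11 for Pcgf6. The comparisons share the control oocyte libraries, and the difference between them was not tested. Rnf2 (log2 ratio 0.39), Cbx2 (-0.48) and Ezh1 (-0.82) were within 2-fold too, and Ring1 was at 0.697 in Kdm1aZp3 M-Z+ 2C embryos and 0.393 in control oocytes, under the minimum. The median of the 9 was -0.05.

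No table sets Kdm1aZp3 M-Z+ 2C embryos against Kdm1aZp3 oocytes, so this step was taken through the control oocytes of 2 tables. The labels name different library kits for the eggs and the 2C embryos, which cannot be told apart from the stage. By this route the log2 difference between Kdm1aZp3 M-Z+ 2C embryos and Kdm1aZp3 oocytes was 1.66 for Suz12 and 1.32 for Bmi1, beside 1.84 and 1.81 for control 2C embryos over control oocytes. It was 0.76 for Ezh2 and -0.25 for Eed, beside -1.30 and -2.41 in controls. For Jarid2 it was -1.08, beside -2.03 in controls, and for Pcgf6 -0.43, beside -1.11. For Cbx2 it was 0.38 beside -0.69 in controls, for Rnf2 0.72 beside 0.48 and for Ezh1 -0.21 beside -0.74. Ring1, under the minimum mean in both comparisons of this route, was left out. For Ezh2 and Cbx2 the mutant value lay above 0 and the control value below it. These differences share the control oocyte libraries and are values side by side, not a test.

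The proportions between subunits do not depend on how a table was scaled. In Kdm1aZp3 M-Z+ 2C embryos the mean of Suz12 was 5.09 times that of Eed, and in control 2C embryos 22.0 times. In Kdm1aZp3 oocytes this ratio was 1.39 and in control oocytes 1.20. Read counts were not divided by gene length, so it is the difference between groups and not the ratio itself that can be read. The ratio of Ezh2 to Suz12 was 0.549 in Kdm1aZp3 M-Z+ 2C embryos and 0.111 in control 2C embryos, and 1.01 in Kdm1aZp3 oocytes and 0.950 in control oocytes. In these ratios of Eed and Ezh2 with Suz12, Kdm1aZp3 M-Z+ 2C embryos lay between control 2C embryos and both groups of oocytes. Ezh2 to Eed did not follow this order, at 2.79 in Kdm1aZp3 M-Z+ 2C embryos and 2.45 in control 2C embryos, and 1.40 in Kdm1aZp3 oocytes and 1.14 in control oocytes. Neither did Bmi1 to Suz12, at 0.482 in Kdm1aZp3 M-Z+ 2C embryos and 0.775 in control 2C embryos. In oocytes the ratio of Bmi1 to Suz12 was 0.615 in Kdm1aZp3 and 0.787 in control.

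The balance of the catalytic paralogs leaned most to Ezh2 in Kdm1aZp3 M-Z+ 2C embryos. Ezh2 to Ezh1 was 17.2 there and 5.13 in control 2C embryos, and 8.84 in Kdm1aZp3 oocytes and 7.52 in control oocytes. In PRC1 the ratio of Bmi1 to Pcgf6 was 1.61 in Kdm1aZp3 M-Z+ 2C embryos and 8.34 in control 2C embryos. In Kdm1aZp3 oocytes it was 0.481 and in control oocytes 1.11. The mutant ratio was the lower of each pair, by 5.19-fold in 2C embryos. Rnf2 to Bmi1 was 0.463 in Kdm1aZp3 M-Z+ 2C embryos and 0.198 in control 2C embryos, and 0.693 in Kdm1aZp3 oocytes and 0.491 in control oocytes.

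**Figure D3:**
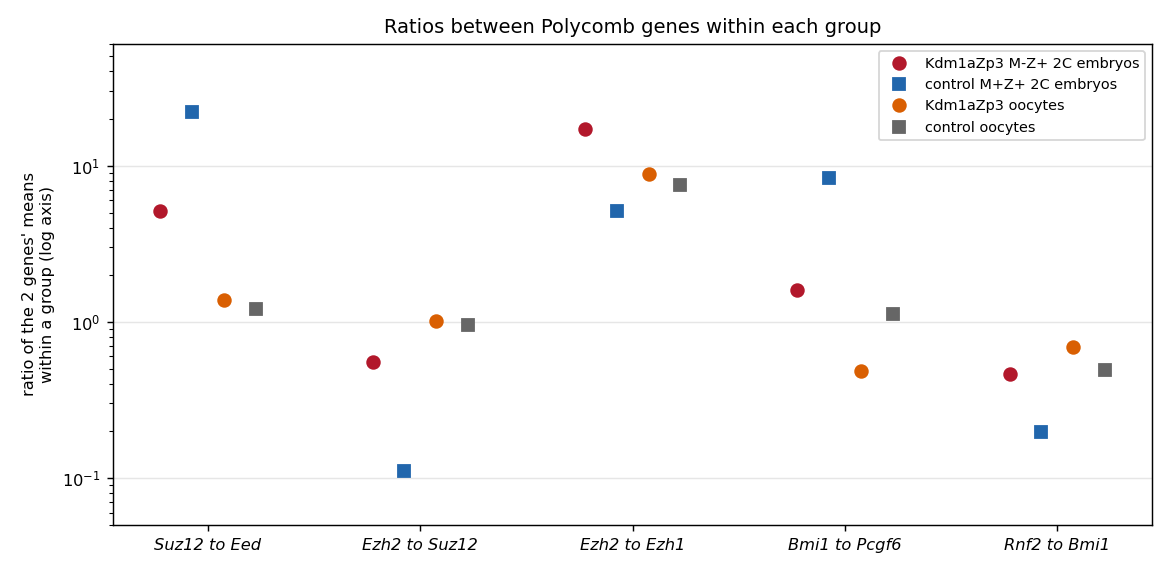
Ratio of the means of a pair of Polycomb genes within each of the 4 groups (log axis), with circles for the Kdm1aZp3 groups and squares for the control groups. For Suz12 to Eed, Kdm1aZp3 M-Z+ 2C embryos (5.09) lie between control 2C embryos (22.0) and the oocytes (1.39 in Kdm1aZp3 and 1.20 in control), and for Bmi1 to Pcgf6 the Kdm1aZp3 value is below the control value at both stages.

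Levels were also divided by exon length in kilobases to order the genes of 1 group. This length takes all annotated exons of a gene together. The length of the transcripts present in these cells is not known, so the order is approximate. In Kdm1aZp3 oocytes Pcgf6 was first (940 per kb), followed by Suz12 (747) and Eed (696), while in control oocytes Eed (1111 per kb), Suz12 (1035) and Bmi1 (1013) led. The levels of Eed, Suz12 and Bmi1 in control oocytes are close, and their order cannot be told without a spread over libraries. In Kdm1aZp3 M-Z+ 2C embryos Suz12 (3467 per kb), Bmi1 (2080) and Ezh2 (1408) led. In control 2C embryos Suz12 (5686 per kb) and Bmi1 (5483) were far above Rnf2 (1044) and the remaining genes. Eed had rank 6 in both groups of 2C embryos, at 880 per kb in Kdm1aZp3 M-Z+ embryos and 334 in control embryos. Cbx2, Jarid2, Ezh1 and Ring1 held the last 4 places in every group, with Ezh1 at 73.7 per kb in Kdm1aZp3 M-Z+ 2C embryos and 81.9 in control 2C embryos. The exons of Ezh2, Eed, Suz12 and Rnf2 share between 158 and 261 bases with a gene on the opposite strand, and whether counting used strand is not given in the sources used here.

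Likeness of pattern was measured by the Euclidean distance over 3 log2 ratios (mutant over control oocytes, control 2C embryos over control oocytes, mutant over control 2C embryos) among 42 Polycomb genes. Ezh1 and Cbx2 were nearest to each other (distance 0.37). Suz12 was nearest to Bmi1 (0.77), while Bmi1 was nearer to L3mbtl2 (0.70), a subunit of the variant complex PRC1.6. Eed was nearest to Dcaf7 (0.50), Ezh2 to Auts2 (0.69) and Pcgf6 to Pcgf3 (0.64), all 3 subunits of variant PRC1 complexes. Jarid2 was nearest to Max (0.51) and Rnf2 to the PRC2 cofactor Aebp2 (0.57). For Ring1 the nearest was Pcgf5 at 2.21. Ring1 is listed at 0 in both groups of oocytes and its other ratios depend on the added 1, so this distance depends on it too.

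The other PRC2 genes, a list of 9 cofactors, were counted in the same way. Of 8 past the minimum, 4 were at least 2-fold higher (32.2% of all rows were) and 1 was lower (41.2% of rows were) in Kdm1aZp3 M-Z+ 2C embryos than in control 2C embryos, with a median log2 ratio of 0.36 against -0.32 over all rows. Ezhip, whose product inhibits EZH2 and is made in oocytes, had a mean of 25228 in Kdm1aZp3 M-Z+ 2C embryos and 2240 in control 2C embryos (log2 ratio 3.49). Rbbp7, a histone chaperone of PRC2 and other complexes, had 15487 in Kdm1aZp3 M-Z+ 2C embryos and 2688 in control 2C embryos (log2 ratio 2.53), and the Polycomb-like gene Phf19 had 145 in Kdm1aZp3 M-Z+ 2C embryos and 8.07 in control 2C embryos (log2 ratio 4.01). Mtf2, another Polycomb-like gene, went the other way, at 902 in Kdm1aZp3 M-Z+ 2C embryos and 5282 in control 2C embryos (log2 ratio -2.55). In control 2C embryos over control oocytes the log2 ratios of these 4 genes were -2.39 for Ezhip, -2.37 for Rbbp7, -3.69 for Phf19 and 2.00 for Mtf2, a comparison that shares the control 2C libraries. In that step 1 of the 8 was higher and 4 were lower, where 39.9% and 34.9% of all rows were. In Kdm1aZp3 M-Z+ 2C embryos over control oocytes 2 were higher and 1 lower (27% and 31.7% of rows), and in Kdm1aZp3 oocytes over control oocytes 0 were past 2-fold (17.9% of rows were higher and 14.2% lower), with Ezhip at 5385 in Kdm1aZp3 oocytes and 7593 in control oocytes (log2 ratio -0.50).

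Of 24 other PRC1 genes past the minimum, 8 were at least 2-fold higher (33.3%) and 7 lower (29.2%) in Kdm1aZp3 M-Z+ 2C embryos than in control 2C embryos. These shares lie near or below the 32.2% and 41.2% of all rows, and the list's median log2 ratio was 0.26. The lower genes include 3 with means near 0 in the mutant embryos. Bcor, a corepressor of the variant complex PRC1.1, was at 3.51 in Kdm1aZp3 M-Z+ 2C embryos and 474 in control 2C embryos (log2 ratio -6.72). Pcgf5, a PCGF subunit, was at 10.2 in Kdm1aZp3 M-Z+ 2C embryos and 1136 in control 2C embryos (log2 ratio -6.67). E2f6, a DNA-binding subunit of PRC1.6, was at 1.88 in Kdm1aZp3 M-Z+ 2C embryos and 154 in control 2C embryos (log2 ratio -5.75). Mga, the large DNA-binding subunit of PRC1.6, was at 2530 in Kdm1aZp3 M-Z+ 2C embryos and 12227 in control 2C embryos (log2 ratio -2.27). Other partners of PCGF6 were not all lower. L3mbtl2 had a log2 ratio of -1.68, but Max had -0.35, Rybp -0.26, Yaf2 0.28 and Wdr5 0.10, all named after their values were seen. Phc3, of canonical PRC1, was higher, at 213 in Kdm1aZp3 M-Z+ 2C embryos and 29.2 in control 2C embryos (log2 ratio 2.82).

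In control 2C embryos over control oocytes 8 of 23 other PRC1 genes were higher and 8 lower (34.8% each, where 39.9% of all rows were higher and 34.9% lower). Pcgf5 had a mean of 1642 in control 2C embryos and 84.3 in control oocytes (log2 ratio 4.27), and the ratios of E2f6 and Mga were 2.88 and 2.68. Scmh1, a Polycomb protein of PRC1, had 858 in control 2C embryos and 5443 in control oocytes (log2 ratio -2.66), and the ratio of Phc3 was -3.56. In Kdm1aZp3 M-Z+ 2C embryos over control oocytes 2 of 22 were higher and 5 lower (9.09% and 22.7%, where 27% and 31.7% of rows were), among them Bcor at 3.64 in Kdm1aZp3 M-Z+ 2C embryos and 110 in control oocytes (log2 ratio -4.58) and Max at 3063 in Kdm1aZp3 M-Z+ 2C embryos and 17456 in control oocytes (log2 ratio -2.51). In Kdm1aZp3 oocytes over control oocytes 1 of 22 was higher and 3 were lower (4.55% and 13.6%, where 17.9% and 14.2% of rows were). The higher gene was Cbx6, at 81.2 in Kdm1aZp3 oocytes and listed at 0 in control oocytes, and the lower genes were Bcor, listed at 0 in Kdm1aZp3 oocytes and at 71.0 in control oocytes, Cbx8 (log2 ratio -3.04) and Max (-1.01). Cbx6 and Cbx8 fall outside the rule for named genes and were chosen after their values were seen.

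Enzymes that oppose Polycomb marks were counted beside them. Of 7, 3 were at least 2-fold higher and 2 lower in Kdm1aZp3 M-Z+ 2C embryos than in control 2C embryos (42.9% and 28.6%, where 32.2% and 41.2% of all rows were). Asxl2, a cofactor of the H2A deubiquitinase BAP1, had a mean of 143 in Kdm1aZp3 M-Z+ 2C embryos and 1387 in control 2C embryos (log2 ratio -3.26). Mysm1, another H2A deubiquitinase, had 588 in Kdm1aZp3 M-Z+ 2C embryos and 3315 in control 2C embryos (log2 ratio -2.49). The higher genes were Bap1 (log2 ratio 1.38), Asxl1 (1.18) and the H3K27 demethylase Kdm6b (1.15). In control 2C embryos over control oocytes 3 of the 7 were higher and 3 lower (39.9% and 34.9% of all rows were), with Kdm6b at 1886 in control 2C embryos and 14904 in control oocytes (log2 ratio -2.98) and log2 ratios of 2.74 for Asxl2 and 2.13 for Mysm1. In Kdm1aZp3 M-Z+ 2C embryos over control oocytes 1 was higher and 1 lower (27% and 31.7% of rows), and in Kdm1aZp3 oocytes over control oocytes 0 of the 7 passed 2-fold (17.9% of rows were higher and 14.2% lower).

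**Figure D4:**
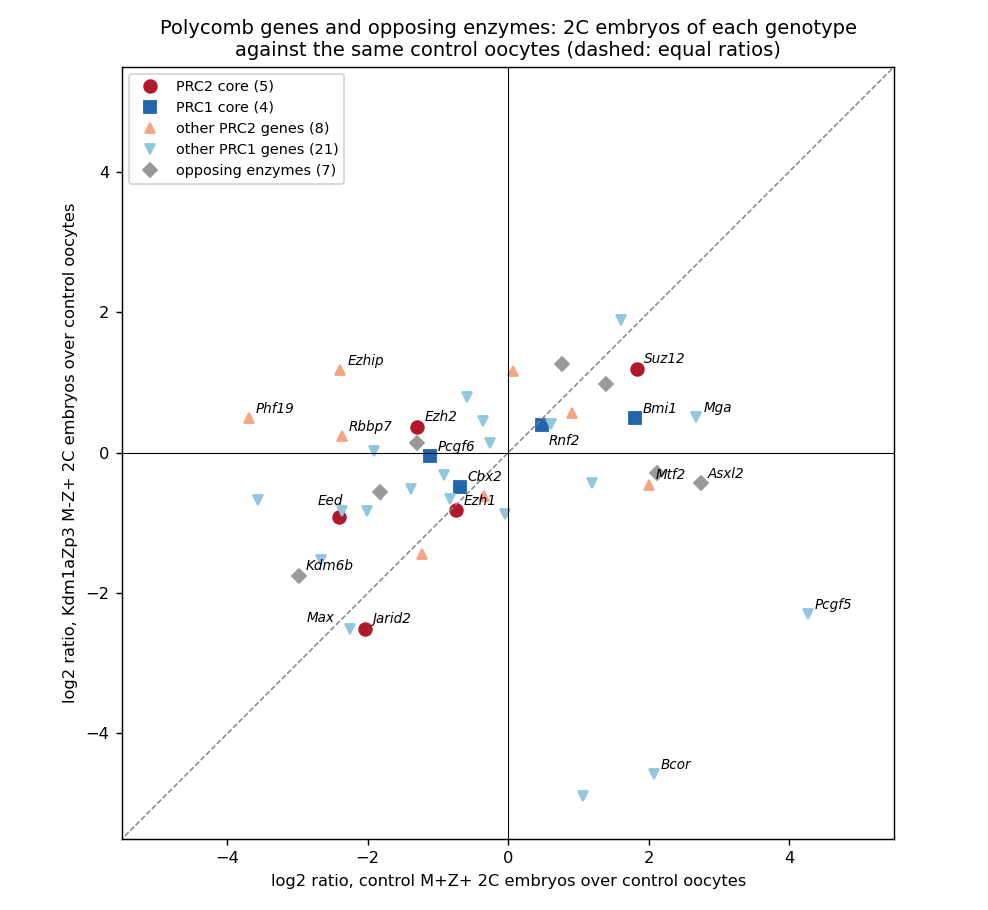
Log2 ratio over control oocytes in Kdm1aZp3 M-Z+ 2C embryos (vertical axis) and in control 2C embryos (horizontal axis), for 45 genes past the minimum mean in both tables, 7 of which are enzymes that oppose Polycomb marks and the rest Polycomb genes. Points on the dashed line would have equal ratios, and since both axes share the control oocytes a spread along that line is built in. Jarid2 (-2.51 in Kdm1aZp3 M-Z+ 2C embryos and -2.03 in control 2C embryos) lies near the line, Ezhip (1.17 in Kdm1aZp3 M-Z+ 2C embryos and -2.39 in control 2C embryos) above it, and Bcor and Pcgf5 below it.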

How the data were processed

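RNA-seq libraries of Kdm1aZp3 oocytes and Kdm1aZp3 M-Z+ 2C embryos (3 each) were compared with control libraries of an earlier study. Depth per library is unknown here, so no counting interval is given and the precision of a mean is not known. Of per-library value columns, 0 were left out.

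The values used are normalized scores deposited by the authors, 1 mean per gene and group in each of 4 tables. The authors cut first reads to 50 bp, dropped those whose mean base quality was under 15, and aligned the rest to mm10 gene transcripts and RepeatMasker repeats in BBMap (95% identity, at most 1 indel, at most 2000 equal alignments). Reads matching several gene loci were divided by the square of the number of loci, so close copies share reads. Counts were median normalized within a table and averaged within a group, so levels were compared only within a table. Cufflinks and DESeq are named in the submitters' processing notes. Their versions, and that of BBMap, were not given in the sources used here. The tables also hold the authors' own comparison (fold change, a Monte Carlo share, p, q and whether a gene was tested), which was not used. Repeats were not used.

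The rule for the members uses gene symbols alone, but members and gene lists were chosen with earlier results of these data known. Log2 ratios were computed with 1 added to each mean, and calls needed a mean of 20 in one or both groups and a 2-fold ratio. Named beside the members were, per list and comparison, at most 6 genes past 4-fold whose higher mean reached 100, genes opposite to most of their list, and the nearest gene in pattern. A further gene that meets this rule is not reported here. Of 137 list genes, 135 matched a row. Gene positions and exon lengths are from GENCODE M21 (GRCm38) and promoter windows from RefSeq (GRCm38.p6), which held 9 of the 10 members. Calls were run on simulated counts that held planted changes far larger than 2-fold and counting noise alone. That run therefore says nothing on how often calls near 2-fold are false in these data. Alternatives were an added value of 10, no minimum mean or one of 100, a 4-fold call, centring, ratios taken through the third group and, chosen after seeing the data, equal group totals. Python 3.11.15, numpy 2.4.6, pandas 2.3.3 and matplotlib 3.10.9 were used.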

Additional observations from a re-analysis of the deposited data

How the results depend on the processing

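Of the counts and medians of the members under all alternatives, 88 stayed within 1.5-fold and 9 did not. With a 4-fold call, 0 members were lower in Kdm1aZp3 oocytes than in control oocytes, 0 were higher and 1 lower in Kdm1aZp3 M-Z+ 2C embryos than in control 2C embryos, 1 was higher and 2 were lower in control 2C embryos over control oocytes, and 0 were higher in Kdm1aZp3 M-Z+ 2C embryos than in control oocytes. With a minimum mean of 100, under which Ring1 is left out, 1 member was lower in Kdm1aZp3 M-Z+ 2C embryos than in control 2C embryos. With equal group totals, chosen after seeing the data, 1 was lower and 3 were higher there, since Bmi1 came to -0.95 and Pcgf6 to 1.43, and centring on all rows gave 3 higher and 2 lower. Of all rows, 38.0% were then higher and 36.5% lower with equal totals, and 36.2% and 37.8% when centred. Taken through control 2C embryos, 2 members, Jarid2 and Eed, were lower in Kdm1aZp3 M-Z+ 2C embryos than in control oocytes. Of the single member ratios under alternatives, 254 were within 1.5-fold of the value reported and 2, both of Ring1, moved with 10 added. No call changed sign, but Ezh1 and Rnf2 in Kdm1aZp3 M-Z+ 2C embryos over control 2C embryos, within 2-fold, were at 0.17 and 0.15 when centred and at 0.30 and 0.28 with equal totals. No paired analysis was possible because the tables hold 1 mean per group and no value per library, and leaving out a replicate could not be run for the same reason. Differences near 2-fold cannot be judged without the spread over libraries, and ratios of means under 20 rest mainly on the added value.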

Other observations

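Genes that are imprinted through maternal H3K27me3 in mouse embryos were looked at as a list of 6, of which Sfmbt2, Slc38a4 and Smoc1 were under the minimum mean of 20 in all 4 tables. Gab1, an adaptor protein silenced on the maternal allele, had a mean of 1074 in Kdm1aZp3 oocytes and 31.3 in control oocytes (log2 ratio 5.06). It had 1256 in Kdm1aZp3 M-Z+ 2C embryos and 603 in control 2C embryos (log2 ratio 1.06), and 885 in control 2C embryos and 69.7 in control oocytes (log2 ratio 3.65). Xist, the RNA that coats the inactive X chromosome, had 3.97 in Kdm1aZp3 M-Z+ 2C embryos and 869 in control 2C embryos (log2 ratio -7.45), and 1261 in control 2C embryos and 0.447 in control oocytes (log2 ratio 9.77). Jade1 had 9.72 in Kdm1aZp3 M-Z+ 2C embryos and 1231 in control 2C embryos (log2 ratio -6.84), and 1789 in control 2C embryos and was listed at 0 in control oocytes. Gab1 was thus the member of this list with a higher mean in the mutant group at both stages, while Xist and Jade1 were high in control 2C embryos and low in the other groups. In oocytes Gab1 was the single gene of the 6 past the minimum.

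Developmental regulators that Polycomb silences in later cells, a list of 49 genes with 48 rows, were mostly under the minimum: 7 passed it in the oocyte table and 9 in the table of the 2 groups of 2C embryos. In Kdm1aZp3 oocytes 3 of the 7 were at least 2-fold higher and 2 lower than in control oocytes (17.9% and 14.2% of all rows were), and in Kdm1aZp3 M-Z+ 2C embryos 2 of the 9 were higher and 5 lower than in control 2C embryos (32.2% and 41.2% of all rows were). Gata4, an endoderm and heart factor, had a mean of 13.9 in Kdm1aZp3 M-Z+ 2C embryos and 3256 in control 2C embryos (log2 ratio -7.77), and 4727 in control 2C embryos and 220 in control oocytes (log2 ratio 4.42). Tbx5, a heart and forelimb factor, had 268 in Kdm1aZp3 M-Z+ 2C embryos and 0.840 in control 2C embryos (log2 ratio 7.19), and 126 in Kdm1aZp3 oocytes and 3.21 in control oocytes (log2 ratio 4.91). Hoxa13 had 1.24 in Kdm1aZp3 M-Z+ 2C embryos and 117 in control 2C embryos (log2 ratio -5.71). Of 10 past the minimum in control 2C embryos over control oocytes, 7 were higher and 1 lower (39.9% and 34.9% of all rows were). None of these values has a spread over libraries, and no link to the level of a Polycomb gene was tested.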
